A study of Homo sapiens with 10 samples.

Results

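The genes described here code for the 4 receptors of the EGFR family, EGFR, ERBB2, ERBB3 and ERBB4, together with AXL and MET. These 6 genes were taken from 20163 protein-coding genes by name, and the rule that takes them uses no measured value, although they were picked with earlier results of these data known. For each, the peaks were taken that share at least 1 base with its bounds in GENCODE release 44, lifted to GRCh37, after the bounds were widened by 50 kb on each side. This gave 168 of the 128837 deposited peaks. A promoter was any annotated start site of the gene widened by 1 kb.

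All 6 are receptor tyrosine kinases, which span the cell membrane and signal to growth, survival and migration pathways once a ligand brings receptors together. EGFR binds EGF, TGFA and AREG, among others. ERBB2 has no known ligand and acts as a dimer partner, ERBB3 and ERBB4 bind neuregulins, and ERBB3 has very weak kinase activity of its own. AXL binds GAS6, and MET binds hepatocyte growth factor. In breast cancer, amplified ERBB2 defines the HER2-positive class, while EGFR, AXL and MET are well known in triple-negative and mesenchymal-like tumour cells.

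The cells were MDAMB231, an established line of triple-negative breast cancer, which lacks estrogen and progesterone receptors and ERBB2 amplification, grown untreated in DMEM with 5% fetal bovine serum. FAIRE-seq recovers DNA free of nucleosomes after crosslinking with 1% formaldehyde, and ChIP-seq was done for H3K4me3, a mark of promoters, H3K27Ac, a mark of active promoters and enhancers, and H3K4me1, a mark of enhancers. Each of these 4 assays had 2 samples, which the authors combined into 1 list of peaks, and 1 input each for FAIRE and ChIP brought the series to 10 samples. The lists held 18019 peaks of H3K4me3, 37495 of H3K27Ac, 26771 of H3K4me1 and 46552 of FAIRE. They give no read counts and no separate replicates, so depth and replicate error cannot be taken from them, there is no test between receptors, and every comparison is a description of these lists. MDAMB231 is 1 cell line with no other group beside it here.

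The promoters of marker genes were looked at first. H3K27Ac peaks lay at the promoters of all 6 mesenchymal markers (VIM, SPARC, FN1, CD44, ZEB1 and CAV1), and FAIRE peaks at the same 6. Of all protein-coding genes, 63.3% and 39.2% had them. H3K4me3 was at the promoters of 5 of these 6, all but SPARC, beside 67.1% of all protein-coding genes. Of 6 luminal markers, ESR1, PGR and FOXA1 had promoter H3K4me3 but no H3K27Ac there, while GATA3, KRT8 and KRT18 had both, and promoter FAIRE was at 3 of the 6. Of 6 epithelial genes, the adhesion genes CDH1, EPCAM and CLDN4 had promoter H3K27Ac, and the regulators ESRP1, GRHL2 and OVOL2 did not. Promoter H3K4me3 was at 4 of the 6, EPCAM, CLDN4, ESRP1 and OVOL2, and not at CDH1 or GRHL2. FAIRE was at the promoters of 4 of these 6. None of the 6 blood cell markers had a promoter peak in any list.

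The 6 loci fell into different layouts. EGFR and MET carried long runs of H3K27Ac and H3K4me1 with many FAIRE peaks inside the gene, AXL carried a wide block of all 3 histone marks over its 5′ end, ERBB2 and ERBB3 had most of their H3K4me3 and H3K27Ac peaks at start sites, their own or those of neighbours, and ERBB4 had H3K4me3 at its start site with few peaks over the rest of its length.

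**Figure D1:**
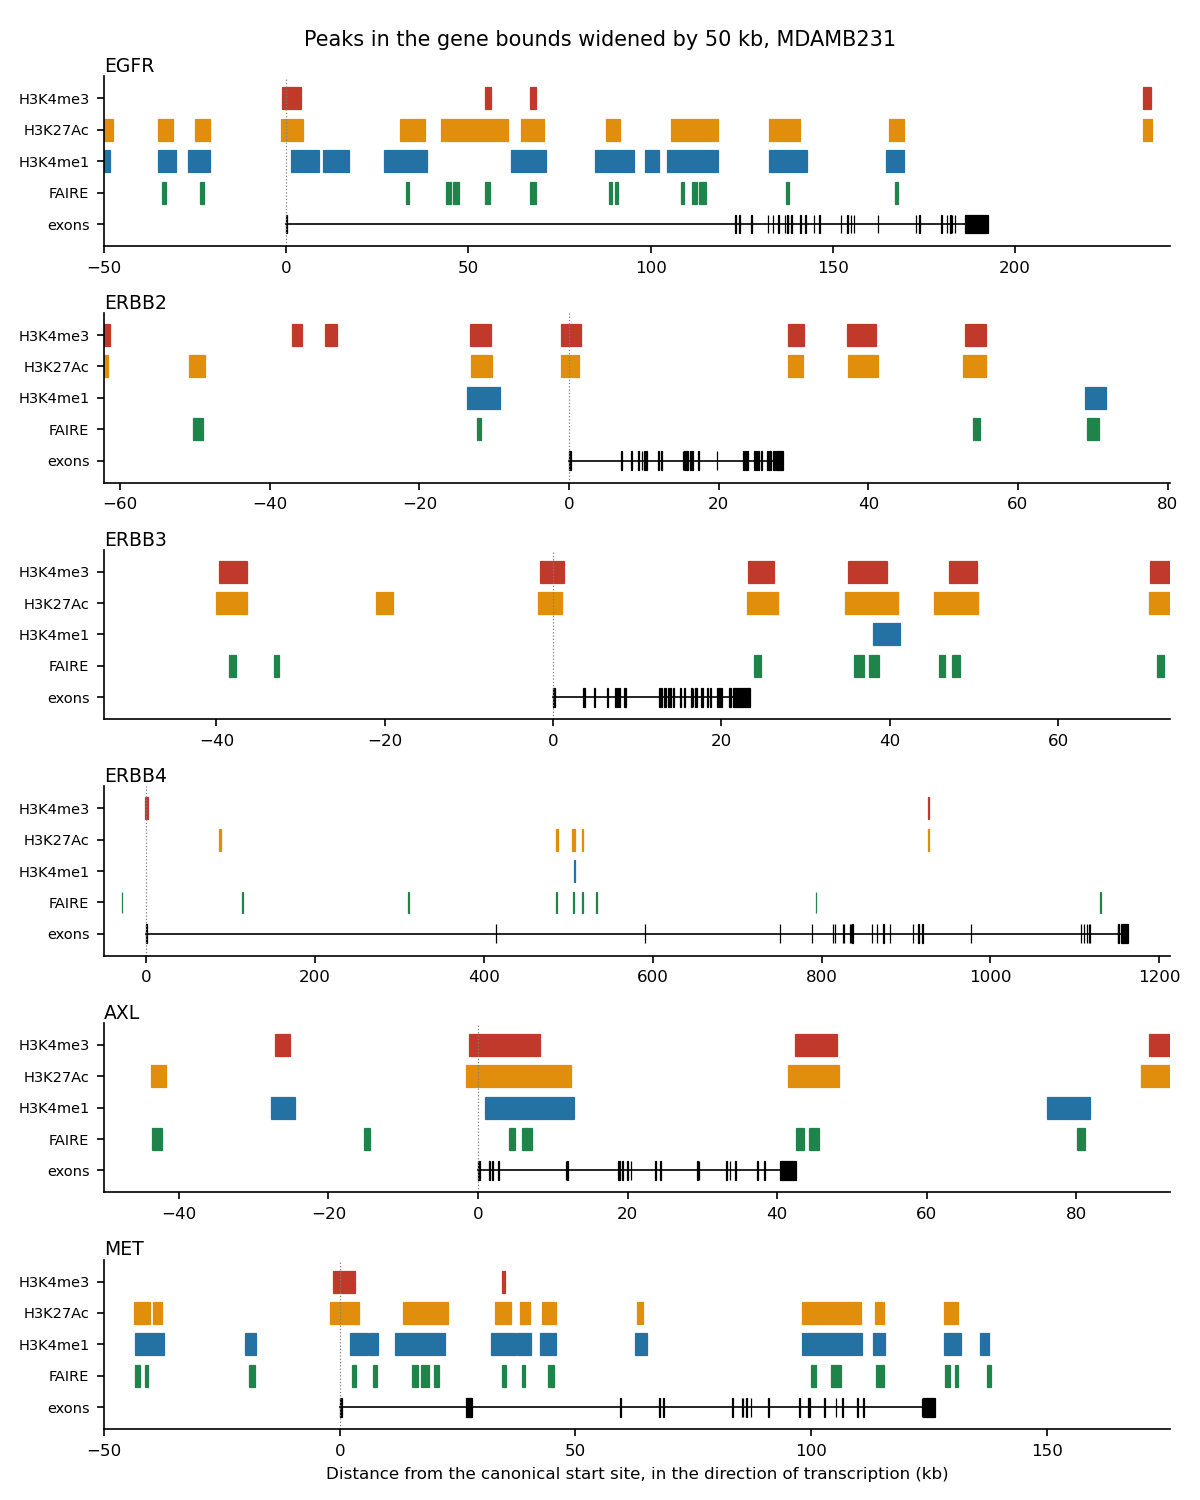
Peaks of each list along the 6 loci, drawn to scale for each gene, with the distance in kb from the start site of the canonical transcript on the horizontal axis and the exons of that transcript in black. EGFR and MET show 12 H3K27Ac peaks each, and ERBB4 shows 5 over a much longer locus.

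FAIRE peaks are shown here as sequence, because they hold the tallest signal of the EGFR, MET and ERBB4 loci and the tallest inside AXL. Each is the 300 bases at the centre of the peak, on the plus strand of GRCh37, and none of them overlaps an annotated exon. The EGFR peak lies in intron 1 (chr7:55200412-55200711). The MET peak lies in intron 2 (chr7:116356963-116357262), the AXL peak in intron 4 (chr19:41731522-41731821) and the ERBB4 peak in intron 2 (chr2:212896822-212897121). Capitals mark matches, on either strand, to the AP-1 letters TGANTCA, the TEAD letters GGAATG, the GC box GGGCGG, the E-box of the ZEB and SNAI type CAGGTG, or the RUNX letters TGTGGT.
EGFR intron 1: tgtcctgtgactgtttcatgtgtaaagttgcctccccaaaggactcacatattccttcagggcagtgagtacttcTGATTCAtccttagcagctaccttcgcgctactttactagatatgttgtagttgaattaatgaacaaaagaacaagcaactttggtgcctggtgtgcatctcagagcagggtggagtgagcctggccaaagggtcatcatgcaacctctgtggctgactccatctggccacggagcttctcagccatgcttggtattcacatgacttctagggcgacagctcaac
MET intron 2: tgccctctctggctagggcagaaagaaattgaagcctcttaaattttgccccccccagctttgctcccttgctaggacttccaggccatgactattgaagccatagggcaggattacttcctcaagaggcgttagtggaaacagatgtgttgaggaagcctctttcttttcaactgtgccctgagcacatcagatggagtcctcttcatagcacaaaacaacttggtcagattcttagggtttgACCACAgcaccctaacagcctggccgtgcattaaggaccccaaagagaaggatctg
AXL intron 4: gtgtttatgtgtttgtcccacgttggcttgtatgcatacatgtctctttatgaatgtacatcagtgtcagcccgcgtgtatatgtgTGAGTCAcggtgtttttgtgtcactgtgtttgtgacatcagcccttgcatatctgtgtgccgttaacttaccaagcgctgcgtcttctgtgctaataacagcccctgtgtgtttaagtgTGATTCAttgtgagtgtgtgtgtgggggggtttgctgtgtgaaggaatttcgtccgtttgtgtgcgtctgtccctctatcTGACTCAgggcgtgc
ERBB4 intron 2: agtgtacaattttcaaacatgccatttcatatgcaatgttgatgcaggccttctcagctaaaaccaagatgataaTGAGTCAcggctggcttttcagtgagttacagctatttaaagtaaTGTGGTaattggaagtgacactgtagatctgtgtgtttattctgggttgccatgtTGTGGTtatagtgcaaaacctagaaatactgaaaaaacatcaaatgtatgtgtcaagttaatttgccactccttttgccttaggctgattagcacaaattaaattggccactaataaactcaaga

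The EGFR intron 1 window held 1 AP-1 match, and the AXL window held 3. The ERBB4 window held 1 AP-1 and 2 RUNX matches. The MET window held 1 RUNX match and no AP-1 match. Of the 18 FAIRE peaks at MET, however, 7 (38.9%) held the AP-1 letters in their central 300 bases. Over all 63 FAIRE peaks of the 6 loci, 24 (38.1%) held the AP-1 letters in their central 300 bases, close to the 39.1% among all 46552 FAIRE peaks. The letters of TEAD were in 11 of 63 (17.5%, against 21.4% of all), those of RUNX in 14 (22.2%, against 24.8%), those of the E-box in 11 (17.5%, against 16.8%) and those of the GC box in 8 (12.7%, against 11.6%). The GC box was in 4 of 8 ERBB3 windows and 2 of 4 ERBB2 windows, and in none of the 17 at EGFR or the 18 at MET. In whole peaks it was in 5 of 17 at EGFR (29.4%) and 1 of 18 at MET (5.56%), against 23.2% of all, so the 0 at EGFR holds for the central 300 bases only. Whole peaks of the 6 loci held the E-box letters in 25 of 63 (39.7%, against 49.5% of all), so for them the order was the other way. They held the TEAD letters in 28 (44.4%, against 46.3%) and the RUNX letters in 29 (46%, against 51.4%). A match to letters is a description of the sequence and does not show that a factor binds.

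At the promoters, all 6 receptors had an H3K4me3 peak, against 67.1% of all protein-coding genes. H3K27Ac was at 5 of 6 promoters, all but that of ERBB4 (background 63.3%). H3K4me1 was at 4 of 6, EGFR, ERBB2, AXL and MET (background 20%), and FAIRE at 3 of 6, EGFR, ERBB2 and AXL (background 39.2%). Those 3 genes had a promoter peak in all 4 lists, as did 13% of all protein-coding genes. H3K4me3 together with H3K27Ac was at 5 promoters (background 61.1%).

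Several of these calls came from start sites of alternative transcripts within the gene. When only the canonical transcript was used, the 1 that the annotation marks as representative of the gene, a choice made after the values were seen, H3K4me3 was again at 6 of 6 start sites (64.9% of 19881 coding genes) and H3K27Ac at 5 (60%). H3K4me1 was then at 1, that of AXL (12.4%), and FAIRE at 0 of 6 (31.7%). The nearest edge of a FAIRE peak was 2609 bases from the canonical start site of MET and 4141 bases from that of AXL. It was 11737 bases away at ERBB2, 22553 at EGFR, 23890 at ERBB3 and 28529 at ERBB4.

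The 6 receptors had 8 promoter H3K4me3 peaks, 3 of them at ERBB2, and each had a score of 3100. This score is minus 10 times the log10 of the peak's p-value from MACS, and 56.8% of all H3K4me3 peaks reached 3100 or more, so the score does not rank these promoters. Width did separate them. The H3K4me3 peak at AXL (chr19:41723871-41733380) spanned 9510 bases, and only 0.281% of the 13532 coding genes with such a peak had one at least as wide. At EGFR (chr7:55085439-55090769) it spanned 5331 bases (4.57% at least as wide) and at MET (chr7:116310819-116315473) 4655 bases (8.71%). The peak of ERBB4 spanned 3452 bases (30.8%) and the one of ERBB3 2864 (54.7%). The widest one of ERBB2, at a promoter shared with its neighbour PGAP3, spanned 2831 (56.4%), and the one at its canonical start site 2623. The median over all coding genes with a peak was 2973.

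**Figure D2:**
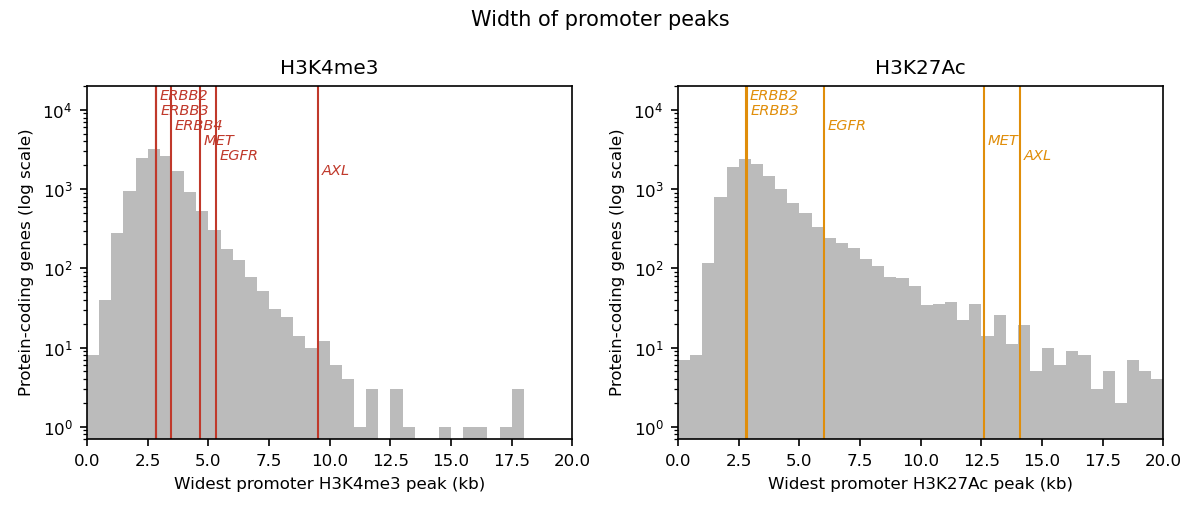
Width in kb of the widest promoter peak of each protein-coding gene, in bins on a log-scaled count axis for H3K4me3 and H3K27Ac, with lines at the receptors. AXL stands at 9.51 kb of H3K4me3 and 14.1 kb of H3K27Ac. The MET line for H3K27Ac is a peak at an internal start site, and both ERBB2 lines are peaks at the promoter shared with PGAP3. In the 2 panels, 1 and 41 genes with peaks of 20 kb or more lie off the axes.

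The share of the widened bounds covered by peaks gave the second measure of each locus. H3K27Ac peaks covered 27% at EGFR, 21.6% at MET, 20.7% at ERBB3, 18.9% at AXL, 11.8% at ERBB2 and 0.912% at ERBB4, with a median of 6.14% over all coding genes. H3K4me1 covered 31.5% at EGFR and 26.4% at MET, against 14.7% at AXL, 5.09% at ERBB2, 2.57% at ERBB3 and 0.125% at ERBB4, with a median of 2.42%. FAIRE peaks covered 8.42% at MET, 5.55% at ERBB3, 5.53% at AXL, 5.48% at EGFR, 3.21% at ERBB2 and 0.608% at ERBB4 (median 1.83%). H3K4me3 had another order, with 15.5% at ERBB3, 14% at AXL, 12.6% at ERBB2, 3.67% at EGFR, 2.41% at MET and 0.369% at ERBB4 (median 3.61%).

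**Figure D3:**
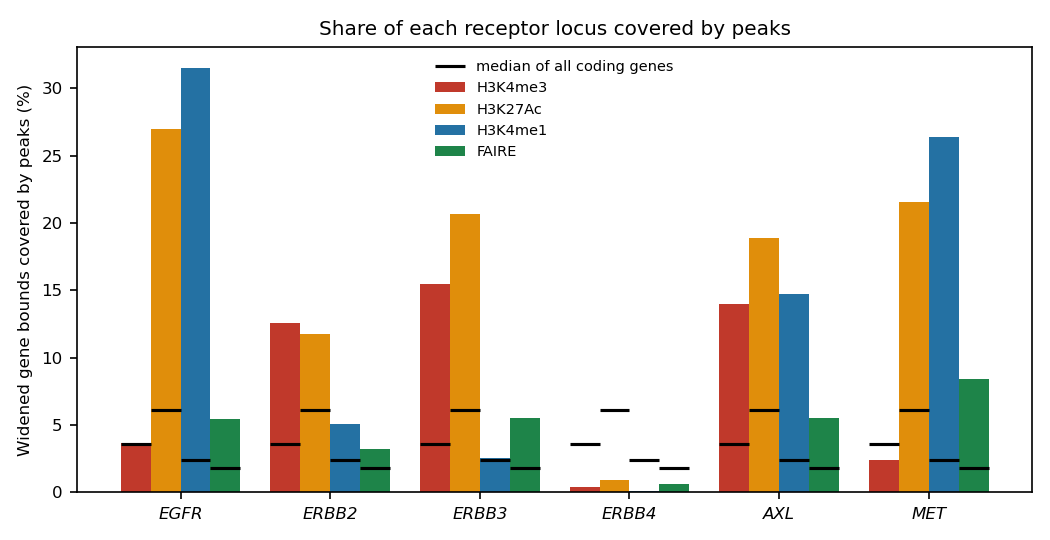
Percent of each receptor's widened bounds covered by peaks of the 4 lists (bars), with the median of all 20163 protein-coding genes for that list as a black line. EGFR and MET are highest for H3K4me1, at 31.5% and 26.4%, and ERBB4 is under the median line in every list.

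EGFR, the receptor for EGF, had the largest H3K4me1 cover of the 6 receptors and of 58 receptor tyrosine kinase genes. Its locus (gene bounds chr7:55086710-55279321, 193 kb) held 4 peaks of H3K4me3, 12 of H3K27Ac, 12 of H3K4me1 and 17 of FAIRE, and no other protein-coding gene starts within it. Only 0.253% of coding genes had as much H3K4me1 cover, and 2.34% as much H3K27Ac cover. Most of these peaks lay in the long intron 1, with the centres of 13 FAIRE, 6 H3K27Ac and 7 H3K4me1 peaks.

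The widest H3K27Ac peak of EGFR (chr7:55129199-55147476) spanned 18278 bases, and 68 of the 37495 H3K27Ac peaks were wider. Its centre lay 51.6 kb downstream of the canonical start site, and it shared bases with 4 FAIRE peaks and 1 H3K4me3 peak, but with no H3K4me1 peak. Further into the intron, a 12692-base H3K27Ac peak (chr7:55192439-55205130) lay inside a 13808-base H3K4me1 peak (chr7:55191325-55205132), the widest of that mark at EGFR. The H3K4me1 score of 1270 there was passed by 56 of 26771 peaks. This stretch had 4 FAIRE peaks, among them the tallest of the locus (chr7:55199986-55201137), with a height of 173 in the deposited units, against a median of 61.1 over the whole list. Only 0.548% of FAIRE peaks were at least as tall.

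Upstream of EGFR, 2 FAIRE peaks lay in peaks of both H3K27Ac and H3K4me1. The nearer and lower of them had a height of 152 (centre −23.1 kb). All 17 FAIRE peaks of the locus shared bases with H3K27Ac, and 13 (76.5%) with H3K4me1, where 71.8% and 54.9% of all FAIRE peaks did. The promoter FAIRE call of EGFR came from a peak of height 54.7 (chr7:55176834-55177658) at an internal start site, 90.5 kb into the gene. An H3K27Ac peak of 3728 bases with a score of 317 (chr7:55174588-55178315) and an H3K4me1 peak of 10954 bases with a score of 669 (chr7:55171314-55182267) lay at the same start site. At the canonical start site itself there was H3K4me3 and H3K27Ac (chr7:55085226-55091256, 6031 bases), and the nearest H3K4me1 edge was 1359 bases away.

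MET, the receptor for hepatocyte growth factor, had a similar layout. Its locus (gene bounds chr7:116312250-116438431, 126 kb) held 2 peaks of H3K4me3, 12 of H3K27Ac, 13 of H3K4me1 and 18 of FAIRE. A start site of CAPZA2, an actin capping gene, lies inside the widened bounds, but its promoter H3K4me3 and H3K27Ac peaks do not. MET ranked next to EGFR among the 58 kinases for H3K4me1 cover, and 0.645% of coding genes had as much. Its FAIRE cover was also high, with 1.28% of coding genes at or above it. FAIRE peaks occurred at 7.96 per 100 kb in the MET locus and 5.81 in the EGFR locus, beside a median of 1.97 over coding genes.

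At the canonical start site of MET, an H3K27Ac peak of 6170 bases (chr7:116310129-116316298) lay over the H3K4me3 peak. Inside the gene, the peaks were spread over several introns. A 9574-base H3K27Ac peak in intron 1 (chr7:116325589-116335162) overlapped an H3K4me1 peak with a score of 1180 (chr7:116323986-116334686), which 80 of 26771 peaks passed, and held 3 FAIRE peaks. Near the 3′ end, a 12621-base H3K27Ac peak (chr7:116410237-116422857) and a 12668-base H3K4me1 peak (chr7:116410384-116423051) covered nearly the same stretch, with centres 104 kb from the canonical start site. These were the widest peaks of both marks at MET, and both were counted at a promoter because an alternative start site lies beside them. The tallest FAIRE peak (chr7:116356461-116357765) had a height of 119, lower than 3504 peaks of the list. All 18 FAIRE peaks shared bases with H3K4me1, 15 (83.3%) with H3K27Ac and 2 (11.1%) with H3K4me3. Over all FAIRE peaks these shares were 54.9%, 71.8% and 21.3%.

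AXL, the GAS6 receptor, was marked over its 5′ end in 1 block. Its promoter H3K27Ac peak (chr19:41723515-41737608) spanned 14094 bases, and 0.956% of the 12758 coding genes with such a peak had one at least as wide. An H3K4me1 peak of 11968 bases (chr19:41726004-41737971) began 876 bases from the canonical start site and overlapped most of this block, and the H3K4me3 peak lay within it. FAIRE peaks of height 77.1 and 148 lay in intron 4 under all 3 marks. The taller one (chr19:41731024-41732320) is within 1 kb of an internal AXL start site.

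The rest of the AXL locus belonged mostly to neighbours. The tallest FAIRE peak within the widened bounds (chr19:41769326-41770701) had a height of 225, which 3 of 46552 peaks passed, and lay at the promoter of HNRNPUL1, a gene for a nuclear RNA-binding protein. Of 4 H3K4me3 peaks in the locus, 3 were at the promoters of other genes, CYP2S1, HNRNPUL1 and CCDC97. CYP2S1 had H3K4me3 and H3K4me1 but no H3K27Ac at its promoter. When the gene bounds alone were used, H3K27Ac cover of AXL was 31.9% in place of 18.9%. Its H3K4me1 cover was then 28.1% in place of 14.7%. Both shares also rose at the other receptors except ERBB3, to 33.6% and 41.3% at EGFR and 30.2% and 36.4% at MET.

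ERBB2, the ligandless partner of the family, had H3K4me3 and H3K27Ac at its canonical start site and no broad block. The H3K4me3 peak there (chr17:37855256-37857878) spanned 2623 bases, and the H3K27Ac peak (chr17:37855296-37857623) spanned 2328 bases with a score of 374, which 22612 of 37495 peaks passed. A further promoter, shared with PGAP3 upstream of the canonical start site, had all 4 kinds of peak, with a FAIRE height of 60.5 (chr17:37843975-37844580), an H3K27Ac score of 1299 and an H3K4me1 score of 57. A further promoter peak of H3K4me3 and H3K27Ac at the 3′ end of ERBB2 was also at the start of MIEN1, with widths of 2141 bases for H3K4me3 (chr17:37885639-37887779) and 1981 bases for H3K27Ac (chr17:37885590-37887570, score 811). No FAIRE or H3K4me1 peak had its centre in the canonical ERBB2 transcript.

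Within the ERBB2 locus, 7 other coding genes have start sites, STARD3, TCAP, PNMT, PGAP3, MIEN1, GRB7 and IKZF3. All 7 had promoter H3K4me3, although the peak of IKZF3 lay outside the widened bounds. H3K27Ac was at STARD3, PGAP3, MIEN1 and GRB7, an adaptor gene often amplified together with ERBB2, and not at TCAP, PNMT or IKZF3. The widest H3K4me3 peak of the locus (chr17:37893458-37897298, 3841 bases) and the widest H3K27Ac peak (chr17:37893641-37897593, 3953 bases) lay at GRB7. The widest H3K4me1 peak (chr17:37842682-37847138, 4457 bases) was the one at the PGAP3 start. The only H3K27Ac peak of the locus with a score of 3100 (chr17:37909031-37912103) lay downstream, at no annotated start site, with H3K4me3 of score 3100 and a FAIRE peak of height 48.5. Of the 4 FAIRE peaks, 3 lay at no coding start site. The tallest FAIRE peak of the locus, with a height of 87.2 (chr17:37925533-37927185), lay 70 kb downstream of the canonical start site of ERBB2 with H3K4me1 and without H3K27Ac.

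ERBB3, the neuregulin receptor with little kinase activity, had H3K4me3 (chr12:56472379-56475242) and H3K27Ac (chr12:56472183-56475014, score 857) at its canonical start site. It had no promoter peak of H3K4me1 or FAIRE. Its high cover came mostly from its neighbours, since 5 of 6 H3K4me3 peaks, 5 of 7 H3K27Ac peaks and 6 of 8 FAIRE peaks lay at the promoters of other coding genes. These were RPS26 and RPL41, which code for ribosomal proteins, PA2G4, a gene for an ERBB3-binding protein, ESYT1, ZC3H10 and MYL6B. IKZF4 had H3K4me3 and H3K27Ac at its promoter, in peaks outside the widened bounds, and an unnamed coding gene had no promoter peak. The tallest FAIRE peak of the locus, 153 (chr12:56521353-56522287), was at a start site of ESYT1. The widest H3K4me3 peak (chr12:56509035-56513586, 4552 bases) and H3K27Ac peak (chr12:56508644-56514923, 6280 bases) lay over the start sites of RPL41, ESYT1 and ZC3H10. The locus's only H3K4me1 peak (chr12:56511948-56515198, 3251 bases) lay at ESYT1 and ZC3H10. Within the gene bounds of ERBB3 alone, H3K27Ac cover was 11.9%, and H3K4me1 and FAIRE cover were 0.

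ERBB4, the other neuregulin receptor, is the longest of the 6 genes, with bounds of 1163 kb on chromosome 2 (chr2:212240442-213403565). Its promoter H3K4me3 peak (chr2:213401236-213404687) shared no base with an H3K27Ac, H3K4me1 or FAIRE peak. Of all coding genes, 6.03% had promoter H3K4me3 without promoter H3K27Ac. The nearest H3K27Ac peak was 85593 bases from the canonical start site. The whole locus held 2 peaks of H3K4me3, 5 of H3K27Ac, 1 of H3K4me1 and 9 of FAIRE. That is 0.713 FAIRE peaks and 0.396 H3K27Ac peaks per 100 kb, against medians of 1.97 and 2.1.

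All 9 FAIRE heights at ERBB4 were low, from 25.7 to 55.7, and under the list's median of 61.1. The tallest of them (chr2:212896474-212897469), in intron 2, was the only one that shared bases with both H3K27Ac and H3K4me1. These were the widest H3K27Ac peak of the locus (chr2:212895745-212898702, 2958 bases) and its only H3K4me1 peak (chr2:212895755-212897339, 1585 bases). In the same intron, 2 more FAIRE peaks shared bases with H3K27Ac, and the other 6 peaks of the locus had none of the 3 marks (66.7%, against 19.6% of all FAIRE peaks).

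**Figure D4:**
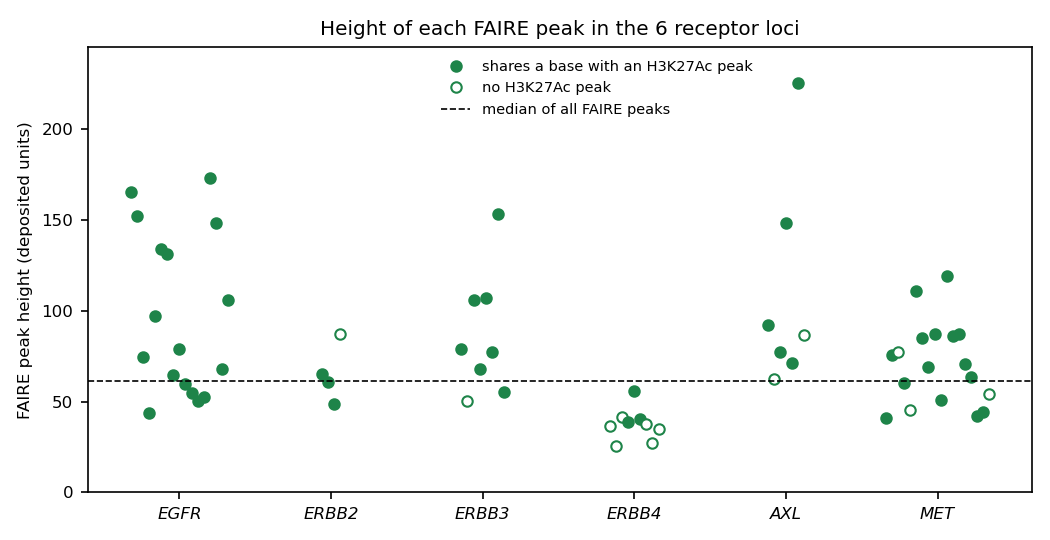
Height of each FAIRE peak in the deposited units, by receptor and in map order, filled where the peak shares a base with an H3K27Ac peak, with the median of all FAIRE peaks as a dashed line. All 9 peaks at ERBB4 lie under 61.1, and all 17 at EGFR are filled.

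Over the 6 loci, 50 of 63 FAIRE peaks shared a base with H3K27Ac (79.4%, exact 95% binomial interval 67.3 to 88.5), beside 71.8% of all FAIRE peaks. The interval covers counting error only, and neighbouring peaks are not independent. FAIRE peaks with H3K27Ac and H3K4me1 but no H3K4me3, the usual layout of an active enhancer away from a start site, numbered 11 of 17 at EGFR and 13 of 18 at MET. They numbered 1 of 9 at ERBB4 and 0 at ERBB2, ERBB3 and AXL. Over the 6 loci they came to 25 of 63 (39.7%), near the 41.2% among all FAIRE peaks. Some deposited FAIRE peaks abut each other, and joining these, a step chosen after the values were seen, left 14 at EGFR and 17 at MET.

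Among the 58 receptor tyrosine kinase genes, 39 had promoter H3K4me3 (67.2%, against 67.1% of all coding genes) and 26 had promoter H3K27Ac (44.8%, against 63.3%). H3K4me3 without H3K27Ac was at 16 of them (27.6%), beside 6.03% of all coding genes. ERBB4 was 1 of these 16, with PDGFRB, KIT, KDR, FGFR2, FGFR3, FGFR4, PTK7, EPHA3, EPHA7, EPHA10, EPHB3, EPHB6, RET, LMTK3 and LTK. For H3K27Ac cover, EGFR ranked 3, MET 5, ERBB3 6, AXL 8, ERBB2 16 and ERBB4 46 among the 58. AXL's relatives TYRO3 and MERTK also had H3K4me3 and H3K27Ac at their promoters, as did MST1R, the closest relative of MET.

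**Figure D5:**
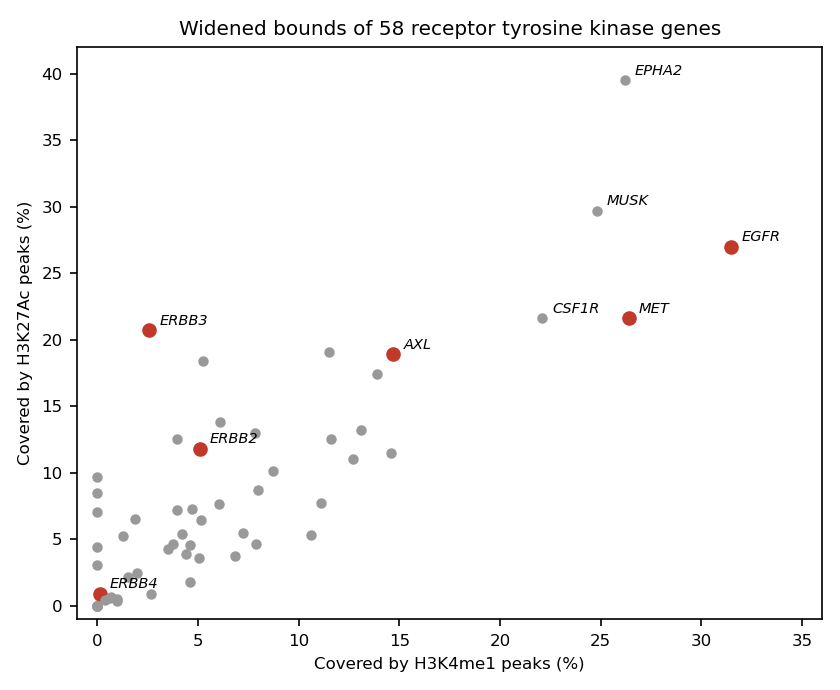
Percent of the widened bounds covered by H3K4me1 (horizontal axis) and by H3K27Ac (vertical axis) for 58 receptor tyrosine kinase genes, with the 6 receptors in red and the others in grey. EGFR and MET lie at the right, ERBB3 at 2.57% of H3K4me1 and 20.7% of H3K27Ac, and ERBB4 near the origin.

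Of 14 genes listed as ligands of these receptors or of their relatives, 10 had promoter H3K4me3 (71.4%) and 9 promoter H3K27Ac (64.3%). These shares were close to the 67.1% and 63.3% of all coding genes. GAS6, the AXL ligand, had 40.8% of its widened bounds under H3K27Ac, and HBEGF, an EGFR ligand, had 27.9%, both with H3K4me3 and H3K27Ac at the promoter. TGFA, EREG, BTC, NRG1, NRG2 and PROS1 also had both promoter marks. AREG and NRG4 had H3K4me3 without H3K27Ac, and EGF had H3K27Ac, H3K4me1 and FAIRE without H3K4me3. HGF, the MET ligand, NRG3 and EPGN had no promoter peak in any of the 4 lists.

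All 12 adaptor and effector genes, such as GRB2, SHC1, GAB1 and STAT3, had promoter H3K4me3 and H3K27Ac, and 8 had promoter FAIRE. All 10 inhibitor genes had both marks too, and 6 had promoter FAIRE. Of all coding genes, 61.1% had both marks and 39.2% had promoter FAIRE. ERRFI1, a feedback inhibitor that binds EGFR, had H3K27Ac over 40.7% of its widened bounds, and SOCS3, an inhibitor of cytokine signalling, had 40.6%. LRIG1, which lowers the level of EGFR family receptors, had 3.2%.

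For each receptor but ERBB4, the genes most alike in cover were taken as the 3 with the smallest Euclidean distance over the 4 lists, on log2 of covered bases per 100 kb, each divided by its SD over all coding genes. For EGFR these were TGFBR2, a TGF-beta receptor (distance 0.0903), UGCG (0.0915) and LINC00696 (0.092), which the annotation lists as protein-coding. For MET they were PIGC (0.043), CD44 (0.0491) and PDP1 (0.0495), and CD44 is also among the mesenchymal markers above. AXL lay nearest to COQ5 (0.0423), PDLIM7 (0.0447) and CHCHD1 (0.0451). ERBB2 lay nearest to PLCB2 (0.0342), SHISA5 (0.0373) and CAMK2N2 (0.0402), and ERBB3 to an unnamed coding gene on chromosome 16 (0.0481), ATOSB (0.0546) and VKORC1 (0.0639).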

How the data were processed

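Peak lists from 10 samples of MDAMB231 cells were used. BWA was used by the authors for alignment to GRCh37, PCR duplicates and poorly mapped reads were dropped, and the samples of each assay were combined. The processing notes of the samples name TopHat and HOMER, and the account here follows the paper's methods. Histone peaks were called by the authors against input with MACS, and the deposited score is minus 10 times the log10 of the p-value. The lowest scores stand for a p near 1e-05, the highest p in the lists, and many scores are at 3100. FAIRE peaks were called by the authors with FindPeaks, and the deposited value is the height of the signal, whose scaling is not given in the sources used here. The lists carry no counts, so depth was not taken from them. The lists have no header, and their starts were read as counted from 0 and are written from base 1. If the authors counted from 1, each printed start is 1 base too high and each width 1 base too small. All peaks ended within the GRCh37 chromosomes used for sequence.

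Overlap meant 1 shared base. Cover was the share of bases under merged peaks. Counting was done in Python 3.11.15 with pandas 2.3.3 and numpy 2.4.6, and checked against bedtools 2.31.1 on 2000 simulated intervals, where 0 counts differed. Ranks were over 20163 protein-coding genes. Groups followed the sample labels. No test was made. Canonical transcripts followed the annotation's tag, which 19881 coding genes had.

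The genes named were the 6 receptors, the tallest FAIRE peak and the widest peak of each mark in each locus, all promoter peaks, coding neighbours, genes of the pathway and marker lists, and the 3 most alike genes per receptor, which are not reported here for ERBB4. The members and lists were chosen with earlier results of these data known. Alternatives were other promoter widths and start sites, a stricter MACS p of 1e-10, FAIRE heights at or above the median, peak centres, other bounds, and whole peaks for motifs.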

Additional observations from a re-analysis of the deposited data

How the results depend on the processing

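No paired analysis was possible because the authors merged both replicates of an assay into 1 list of peaks, and replicates were not left out for the same reason. A count or cover was taken as moved when it changed by over 1.5 times, and the FAIRE share when it left its 95% interval. Promoter counts moved for H3K4me1 and FAIRE. Of 4 receptors with promoter H3K4me1, 2 had it at the most upstream start site and 1 at the canonical one. Of 3 with promoter FAIRE, 1 had it at the most upstream start site, 0 at the canonical one, and 1 had a promoter peak no lower than the list median. Promoter H3K4me3 was at 4 to 6 receptors and H3K27Ac at 4 or 5 under every alternative for the promoter. ERBB3 had neither mark at its most upstream start site. By the centre of the peak, EGFR and AXL had no promoter H3K4me3, and AXL had no promoter H3K27Ac. These wide peaks covered the canonical start site, but their centres lay 1.39, 3.5 and 5.43 kb downstream of it.

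Gene bounds alone gave fewer peaks by construction, with 14 of H3K4me3, 28 of H3K27Ac, 21 of H3K4me1 and 39 of FAIRE. They changed the median cover of the 6 receptors from 9.91% to 17.6% for H3K4me1 and from 5.5% to 3.04% for FAIRE. At a MACS p of 1e-10 the median H3K4me1 cover was 6.19%, and ERBB2, ERBB3 and ERBB4 then had no H3K4me1 peak. FAIRE peaks no lower than the median height numbered 38, and 89.5% of them shared a base with H3K27Ac, as did 85% of all FAIRE peaks of such height. Whole peaks held the AP-1 letters in 38 of 63 (60.3%), close to 59.2% of all whole FAIRE peaks. The other 50 comparisons of this kind did not move. For single receptors and single motifs, 62 values moved and 284 did not. The promoter shares of all coding genes did not move without chromosome Y. The canonical start site and the joining of abutting FAIRE peaks were chosen after seeing the data. The lists hold 1 pooled sample per assay, so a stretch with no peak is not shown to lack the mark.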

Other observations

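Of the 168 peaks in the receptor loci, 20 lay within 1 kb of a start site of a gene that makes no protein, 4 at EGFR, 9 at ERBB3 and 7 at AXL. At AXL these include the promoter peaks of all 3 histone marks, which also lie at the start of an unnamed long noncoding RNA gene. The share over all deposited peaks was not taken, so the count of 20 is not read as high or low. The peaks described next were chosen after their values were seen. Downstream of EGFR, an H3K4me3 peak of 2409 bases with a score of 3100 (chr7:55321757-55324165) and an H3K27Ac peak with a score of 718 lay at the start of ELDR, a long noncoding RNA gene, with no H3K4me1 or FAIRE peak. In intron 20 of EGFR, H3K27Ac (score 330) and H3K4me1 (score 62) lay at the start of the antisense gene EGFR-AS1. A FAIRE peak of height 106 shared bases with both. In intron 19 of ERBB4, an H3K4me3 peak of 1214 bases (score 697) and an H3K27Ac peak of 1307 bases (score 90.1) lay 927 kb from the canonical start site, with no annotated start site within 1 kb and no FAIRE peak.

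Among the other receptor tyrosine kinases, EPHA2 and MUSK had more H3K27Ac cover than EGFR, at 39.5% and 29.7%. EPHA2 had a promoter peak in all 4 lists.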
